A study of Bos taurus with 40 samples.

Results

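Pituitary gland and liver are both secretory organs, and their RNA was compared here within 10 Korean cattle, a beef breed. The comparison took every pituitary and every liver library of the series, 20 of its 40 libraries, and paired them by the ear tag number that the labels give for each animal. The animals were 5 cows and 5 bulls, all over 22 months of age, and the labels name no treatment. Each gave 1 liver library and 1 pituitary library, and abdominal fat and muscle of the same animals made up the other 20 libraries. Animals of each sex are numbered 1 to 5 in the text, and each library is a whole-tissue extract that mixes all the cell types of its organ.

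Endocrine cells of the pituitary release hormones by regulated secretion, in which cargo is packed at the trans-Golgi into dense-core granules, matured there by proteases in an acid lumen, and held until calcium triggers fusion with the cell surface. Hepatocytes release most of their product, the proteins of blood plasma, by constitutive secretion, in which vesicles leave the Golgi and fuse without waiting for a trigger. Both routes begin alike, with entry into the endoplasmic reticulum (ER), folding and glycosylation there, and transport in COPII-coated vesicles to the Golgi.

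Reads counted on genes numbered 6898811 to 19165864 per library, and the median library held 10341220.5 in liver and 10161721.5 in pituitary. Of the 12949 genes with at least 1 read in these libraries, 9071 (70.1%) differed between the tissues in edgeR's quasi-likelihood test with the animal as a block (adjusted p under 0.05). Of these, 4993 (38.6% of all genes tested) were higher in pituitary and 4078 (31.5%) in liver, and in 4355 genes (33.6%) the 10 libraries of one tissue did not overlap those of the other. A stricter rule, a difference of more than 2-fold by the TREAT test of the same fit, kept 5114 genes (39.5%), 2932 (22.6%) higher in pituitary and 2182 (16.9%) higher in liver. With scaling to the total of reads alone, in place of the trimmed mean of M values (TMM), the calls were 7957 and 2195, so that 78.4% in place of 55.04% of the calls were higher in pituitary. That scaling moved the median log2 fold change of all genes from 0.16 to 0.96, a shift of 0.80. With the 20 most counted genes left out of the scaling the calls were 4631 and 4469, 50.9% of them higher in pituitary, and the median shifted by -0.11. All log2 fold changes below are pituitary over liver, so that positive values are higher in pituitary, and levels are CPM, the count of a gene per megaread of the library's reads on genes after TMM scaling. Because gene lengths were not used, a CPM level is compared between tissues for 1 gene. Shares of a library's reads are shares of reads and not of molecules, and they depend on the length and the number of the genes listed.

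The tissue labels were checked on marker genes. All 12 markers of the anterior pituitary were higher in pituitary and all 9 hepatocyte markers tested were higher in liver. Of 9 markers of the posterior (neural) lobe and glia tested, 7 were higher in pituitary and 0 in liver. The hormones of that lobe are transcribed in cell bodies of the hypothalamus, and AVP, the vasopressin precursor, was at 0.0645 to 1.28 CPM (median 0.349) in pituitary and OXT, the oxytocin precursor, at 0 to 0.984 CPM (median 0.414). GFAP, a glial filament gene, ranged there from 3.37 to 56.5 CPM. The 5 leukocyte markers tested were all higher in liver, where they summed to 645 to 1258 CPM against 21.0 to 79.6 CPM in pituitary. Of 6 endothelial markers, 5 were higher in liver and 1 in pituitary. The 4 markers tested of cholangiocytes, the bile duct cells of liver, were all higher in pituitary, with a median log2 fold change of 2.44. That list did not follow the labels, and the cause was not tested. Of 6 fibroblast markers, 3 were higher in pituitary and 2 in liver. Of 4 red blood cell markers, 2 were higher in liver and 0 in pituitary. In whole tissue, fewer cells of a type and less RNA per cell cannot be told apart, which holds for every difference below.

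The liver library labelled bull 3 went against its label. It held 8694 reads of XIST, the transcript of the inactive X chromosome, where the other bull livers held 2 to 12, and 0 reads of the Y-linked genes DDX3Y, USP9Y and ZFY. Its closest library was the liver of cow 4 (r = 0.993 on log2 values over the 12949 genes tested). A chi-square of the counts of both livers, over 9267 of these genes, gave 15.8 per degree of freedom. The next closest pair of livers gave 45.8, and the median over all 45 pairs was 117. The labels give the livers of bull 3 and cow 4 as separate samples and both were kept. Whether they share an origin was not tested. The pituitary library labelled bull 3 held 2 XIST reads and 1067 reads of the Y-linked genes, so its pair disagreed in sex and may not be 1 animal. Its libraries had the lowest correlation of the 10 pairs in their deviations from the mean of their labelled sex and tissue (r = 0.0255). That value lay close to the 0.0337 of bull 4, whose libraries agreed in sex. For these deviations the liver labelled bull 3 was counted as male. Without bull 3, 8723 of the 9071 calls (96.2%) remained in the same direction, and none of the 18 gene lists below changed its counts by more than 1.5 times. Without bull 3 and cow 4 together, 4662 genes were higher in pituitary and 3893 in liver.

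Each tissue spent a large share of its reads on its own cargo. The 7 hormone genes took 14.1 to 35.4% of the reads on genes in pituitary (median 27.8%) and 0.00135 to 0.0313% in liver. The 62 plasma protein genes tested took 30.8 to 44.6% in liver (median 38.2%) and 0.0918 to 0.197% in pituitary. In every animal the plasma proteins took more of its liver library than the hormones took of its pituitary library, by 11.7 ± 5.31 percentage points (mean ± SD, n = 10 animals, exact two-sided sign-flip permutation test, p = 0.00195, the smallest that 10 pairs allow). The lists hold 62 and 7 genes and were chosen with earlier results of these data known. The sign and size of this difference therefore depend on which genes were listed. As shares of all uniquely aligned reads, on and off genes, this difference was 6.49 ± 3.91 points, and without bull 3 it was 12.5 ± 4.83 points (n = 9, exact two-sided p = 0.00391, the smallest that 9 pairs allow). With that wider denominator the difference between the tissues went from 26.3 to 15.8 points for hormones, from 37.9 to 22.2 for plasma proteins and from 1.91 to 1.10 for granins. The hormone share was the more variable, with an SD of 7.69 points around a mean of 26.4% against 4.52 around 38.02%. A single gene, PRL, took 10.5 to 27.6% of a pituitary library, while ALB, the gene of serum albumin, took 6.53 to 12.04% of a liver library.

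**Figure D1:**
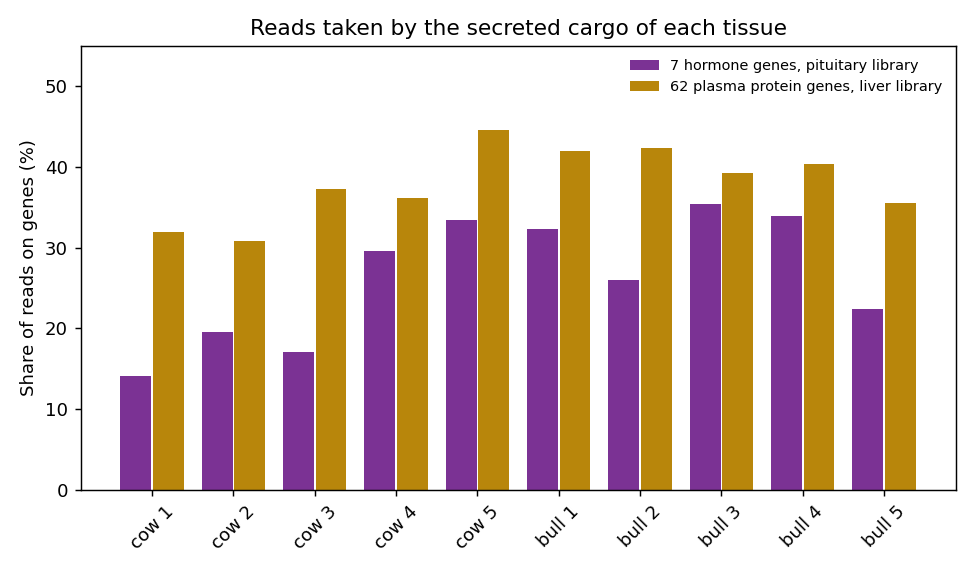
Bars give, for each of the 10 animals, the percentage of reads on genes taken by the 7 hormone genes in its pituitary library and by the 62 plasma protein genes in its liver library. Hormones lie between 14.1 and 35.4%, plasma proteins between 30.8 and 44.6%, and the liver bar is the taller in every animal.

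All 7 hormone genes were called higher in pituitary, and for none did the tissues overlap, with a list median of 10.94. PRL, which encodes prolactin, the hormone of milk production, was at 65322 to 231046 CPM (median 179800) in pituitary and at 9.37 to 333 CPM (median 55.7) in liver (log2 fold change 11.31, standard error 0.51, adjusted p = 4.79e-12). GH1, which encodes growth hormone, was at 6764 to 39652 CPM (median 20638) and 0.766 to 38.7 CPM (median 8.11) (log2 fold change 11.26, standard error 0.55). POMC, the precursor of corticotropin and melanotropin, was at 5603 to 59390 CPM (median 9792) and 4.77 to 22.4 CPM (median 9.64) (log2 fold change 10.44, standard error 0.43). Its highest pituitary value, that of bull 5, was followed by 32209 CPM in bull 4, and the pituitary of bull 5 also had the second lowest PRL, at 68026 CPM.

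The glycoprotein hormones share the alpha subunit CGA, which was at 1384 to 15133 CPM (median 3095) in pituitary and 0.417 to 17.1 CPM (median 2.32) in liver (log2 fold change 10.94, standard error 0.48). The beta subunit of luteinizing hormone, LHB, was at 31.7 to 316 CPM (median 126) against 0 to 0.282 CPM (median 0) (log2 fold change 10.98, standard error 0.36). The beta subunit of follicle-stimulating hormone, FSHB, was at 58.8 to 1833 CPM (median 776) against 0 to 2.11 CPM (median 0.371) (log2 fold change 10.58, standard error 0.49). Of these 3 genes FSHB spread the most between the pituitaries of the 10 animals, at 58.8 to 1133 CPM in the cows and 235 to 1833 CPM in the bulls. In pituitary, CGA was at 1384 to 3250 CPM in the cows and 1486 to 15133 CPM in the bulls. The paper lists CGA among its genes that differ by sex, and a sex difference within pituitary was not tested here. TSHB, the beta subunit of thyrotropin, was at 152 to 858 CPM (median 611) against 0.0852 to 0.986 CPM (median 0.207) (log2 fold change 10.70, standard error 0.34).

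The log2 fold changes of the 7 hormone genes lay close together, between 10.44 and 11.31. In the liver libraries PRL had 110 to 1738 reads, and its mean level was 0.0599% of its pituitary mean. PRL was also read in the other 2 tissues, at 62 ± 37.02 CPM in fat and 87.3 ± 55.02 CPM in muscle (mean ± SD, n = 10), beside 94.98 ± 101 CPM in liver. Here and below, levels in fat and muscle were scaled over all 40 libraries and those in liver and pituitary over 20. In the reverse direction, pituitary libraries had 144 to 433 ALB reads, and the mean level was 0.0144% of that in liver. By a rule chosen after these values were seen, a gene was called at trace level where its mean in the lower tissue was at most 2 times that share of its mean in the higher one, or where it had no read there. PRL and ALB set these shares, so both meet the rule by definition and are included in the counts. All 7 hormones and 5 of the 6 granins called were at trace level in liver, as were 312 of all 4993 genes higher in pituitary (6.25%). Of the 62 plasma proteins, 29 were at trace level in pituitary, as were 166 of all 4078 genes higher in liver (4.07%). Where the trace reads came from was not tested.

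**Figure D2:**
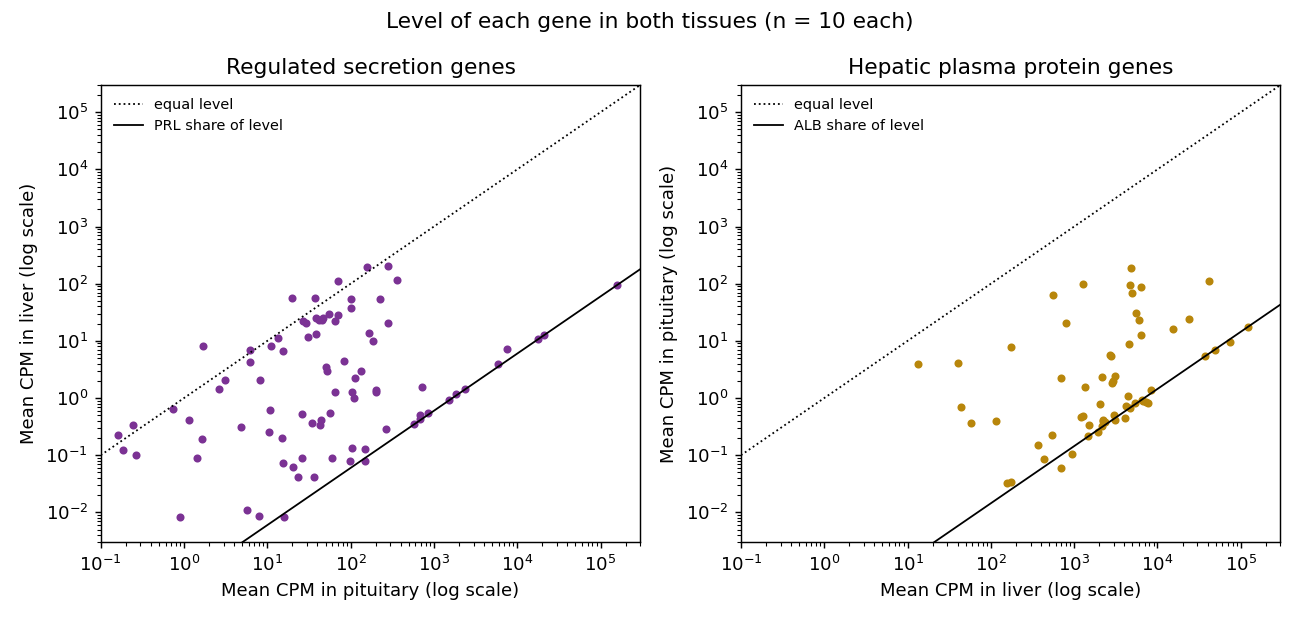
Each point is 1 gene, at its mean CPM in its main tissue (horizontal) and in the other tissue (vertical), both on log scales, n = 10 libraries each. The left panel draws 88 of 92 genes of regulated secretion and the right panel 61 of 62 plasma protein genes, those with no read in the other tissue being left out. The dotted line marks equal levels, and the solid line marks the ratio of PRL (left) or ALB (right).

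The granins, acidic proteins that condense with hormones in the granule, were mostly higher in pituitary. Of 7 tested, 6 were called higher in pituitary and none in liver, with a list median of 10.65, against 0.16 over all genes. Of these 6, 5 were at trace level in liver, as were all 7 hormones. The size of such fold changes, and their likeness, rests on liver reads whose origin was not tested. SCG2 was at 4297 to 11433 CPM (median 7974) in pituitary and 1.96 to 26.4 CPM (median 4.09) in liver (log2 fold change 10.53, standard error 0.37, adjusted p = 1.66e-13). CHGA was at 1484 to 2241 CPM (median 1883) and 0.0852 to 4.60 CPM (median 0.893) (log2 fold change 10.92, standard error 0.42), and no granin called overlapped between tissues. CHGB was at 1717 to 3196 CPM (median 2364) and 0.417 to 3.26 CPM (median 1.34) (log2 fold change 10.72, standard error 0.28), and SCG3 at 528 to 1044 CPM (median 639) and 0.139 to 2.11 CPM (median 0.224) (log2 fold change 10.65, standard error 0.35).

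PCSK1N, which encodes an inhibitor of the convertase PCSK1, had a smaller difference (log2 fold change 7.21, standard error 0.26), at 78.95 to 392 CPM (median 211) and 0.564 to 1.65 CPM (median 1.29). NUCB2, the nesfatin precursor, was the member not called. It was at 87.4 to 261 CPM (median 151) in pituitary and 40.2 to 409.6 CPM (median 147) in liver, and the tissues overlapped (log2 fold change 0.02, standard error 0.31, adjusted p = 0.954).

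Enzymes that mature prohormones were higher in pituitary for 8 of the 9 tested and lower for none. The list shares SCG5 and PCSK1N with the granins. PCSK1, which cuts prohormones at basic residues, was at 72.2 to 186 CPM (median 90.7) in pituitary and at 0 to 0.295 CPM (median 0.124) in liver, where no library had more than 3 reads (log2 fold change 9.58, standard error 0.26, adjusted p = 6.54e-15). PCSK2, the second such convertase, was at 12.5 to 420.1 CPM (median 63.9) and 0.170 to 3.67 CPM (median 0.933) (log2 fold change 6.20, standard error 0.44, adjusted p = 1.65e-09). Bull 5 had the highest PCSK2 level in pituitary, 420.1 CPM, as it had the highest POMC, and also the highest in liver, 3.67 CPM. SCG5, the chaperone of PCSK2, was at 957 to 1899 CPM (median 1597) and 0.330 to 2.30 CPM (median 0.830) (log2 fold change 10.75, standard error 0.33).

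CPE trims the basic residues that convertases leave and was at 592 to 928 CPM (median 689.5) in pituitary and 0.695 to 3.83 CPM (median 1.26) in liver (log2 fold change 8.91, standard error 0.25). QPCT, which forms pyroglutamate at the amino terminus, was at 16.5 to 61.4 CPM (median 46.4) and 0 to 0.688 CPM (median 0.362) (log2 fold change 6.91, standard error 0.26). Other steps were also read in liver. PAM, which amidates peptides at the carboxyl end, was at 264 to 424 CPM (median 349.9) in pituitary and 104 to 130.3 CPM (median 113) in liver, without overlap (log2 fold change 1.64, standard error 0.12). RNPEP, an aminopeptidase, was at 34.3 to 108 CPM (median 74.1) and 14.2 to 51.1 CPM (median 25.1), with overlap (log2 fold change 1.33, standard error 0.27). CTSL1, listed for a cathepsin of granules, had under 1 CPM in every library and was not called (log2 fold change -0.40, standard error 0.55).

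The convertase that acts in the constitutive route lay the other way. FURIN, a protease of the trans-Golgi, was at 35.95 to 63.6 CPM (median 39.1) in pituitary and 189.5 to 806 CPM (median 314) in liver, without overlap (log2 fold change -2.97, standard error 0.20, adjusted p = 6.60e-10). Of the 3 ubiquitous convertases tested it was the only one called higher in liver. MBTPS1, the site-1 protease, was higher in pituitary, at 114 to 204 CPM (median 179.9) against 67.7 to 135 CPM (median 103) (log2 fold change 0.76, standard error 0.13), and PCSK7 was not called (log2 fold change -0.16, standard error 0.14). Within a library, the log2 ratio of PCSK1 to FURIN reads was 12.16 ± 1.29 higher in pituitary than in the liver of the same animal, and that of PCSK2 to FURIN 9.19 ± 2.02 (mean ± SD, n = 10). Each ratio was higher in pituitary in 10 of 10 animals (exact two-sided sign-flip permutation test, p = 0.00195).

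The fusion machinery of regulated secretion was the next group. SNARE proteins on vesicle and cell surface join to fuse the membranes, and Munc18, Munc13, complexin, Rab3 and CAPS proteins prepare or hold that step. Of 38 genes of this list tested, 29 were higher in pituitary, 3 in liver and 6 were not called. The list median was 3.77, or 3.65 with CPLX3 and RPH3A, which had no read in liver, set at their lower bounds. The stricter rule of more than 2-fold kept 23 and 2. SNAP25, a SNARE of the cell surface, was at 204 to 305 CPM (median 273) in pituitary and 0 to 0.688 CPM (median 0.286) in liver (log2 fold change 9.80, standard error 0.33, adjusted p = 1.00e-13). CADPS, which primes dense-core granules for fusion, was at 89.8 to 245 CPM (median 152) and 0 to 0.564 CPM (median 0.109) (log2 fold change 10.25, standard error 0.36, adjusted p = 1.69e-13). Both were at trace level in liver, as were 6 of the 29 genes called higher in pituitary.

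STX1A, the syntaxin partner of SNAP25, was at 35.3 to 62.7 CPM (median 40.5) and 0 to 1.10 CPM (median 0.400) (log2 fold change 6.64, standard error 0.32). RAB3A, a GTPase of secretory vesicles, was at 44.9 to 75.6 CPM (median 55.7) and 0.322 to 0.773 CPM (median 0.569) (log2 fold change 6.64, standard error 0.19). Neither gene overlapped between tissues. UNC13B, a Munc13 priming factor, differed by less, at 89.8 to 114 CPM (median 102) and 42.4 to 65.9 CPM (median 57.9) (log2 fold change 0.92, standard error 0.11).

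The 3 members higher in liver overlapped with pituitary. STXBP6, which binds SNAREs and is named amisyn, was at 1.11 to 14.8 CPM (median 8.20) in liver and 0.505 to 3.16 CPM (median 1.64) in pituitary (log2 fold change -2.27, standard error 0.29, adjusted p = 2.69e-06). ERC1, a scaffold near sites of fusion, was at 18.6 to 91.3 CPM (median 55.3) and 15.1 to 24.9 CPM (median 19.8) (log2 fold change -1.42, standard error 0.16, adjusted p = 7.92e-07). CADPS2, the paralog of CADPS, was at 28.7 to 84.3 CPM (median 52.9) and 22.99 to 53.9 CPM (median 36.6) (log2 fold change -0.59, standard error 0.18).

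Synaptotagmins, of which several sense calcium at fusion, were all higher in pituitary, 10 of 10 tested, with a median of 5.09 (5.71 without SYT12, which had no read in liver and too few in pituitary to give a bound). SYT13, a member that lacks calcium binding, was at 67.4 to 119 CPM (median 102) against 0 to 0.423 CPM (median 0) (log2 fold change 10.40, standard error 0.41). SYT1, the main sensor of neurons, was at 4.87 to 31.9 CPM (median 14.5), with 1 read in all 10 livers together. SYT4 was read in both tissues, at 127 to 301 CPM (median 221) in pituitary and 36.7 to 92.1 CPM (median 46.2) in liver, without overlap (log2 fold change 2.06, standard error 0.17).

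Voltage-gated calcium channels, which admit the trigger, were higher in pituitary for 11 of 12 tested, with a median of 2.78. CACNA1B, the pore of N-type channels, was at 26.3 to 94.6 CPM (median 57.2) against 0 to 0.220 CPM (median 0.0407) (log2 fold change 9.33, standard error 0.35). CACNA1D, an L-type pore, was at 23.1 to 61.4 CPM (median 46.8) against 0.564 to 13.3 CPM (median 1.11) (log2 fold change 4.49, standard error 0.34). The channel higher in liver, CACNA1F, had at most 1.93 CPM in any library (log2 fold change -2.55, standard error 0.59). This machinery is shared with neurons, and the 5 neuron markers tested were also higher in pituitary, summing to 115 to 182 CPM against 0 to 0.958 CPM in liver. Among them SLC17A6, which loads glutamate into synaptic vesicles, was at 0.265 to 3.10 CPM (median 1.69) and RBFOX3, a splicing factor of mature neurons, at 2.16 to 8.49 CPM (median 3.35) in pituitary. Their part in the result was not tested.

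**Figure D3:**
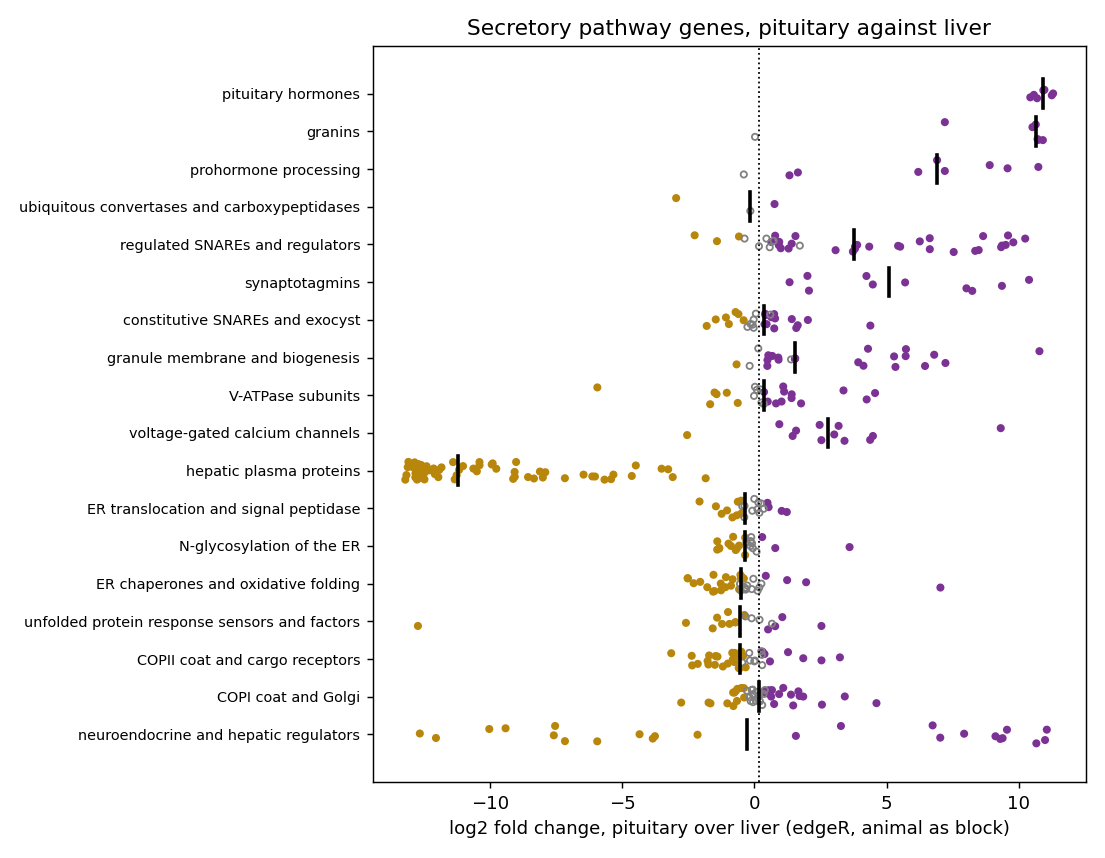
Each point is the log2 fold change, pituitary over liver, of 1 gene of the list named on the left, with filled points past the quasi-likelihood test (purple higher in pituitary, ochre higher in liver) and open points not called. Black bars are list medians and the dotted line the median of all genes, 0.16, which regulated cargo and fusion lists exceed, plasma proteins lie far below, and ER, COPII and Golgi lists lie near.

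The SNAREs, Rabs and exocyst subunits of constitutive fusion showed no such common direction. Of 27 tested, 13 were higher in pituitary, 7 in liver and 7 were not called, with a median of 0.38. The shares of all genes tested were 38.6% and 31.5%. With scaling to the total of reads alone, 21 were higher in pituitary and 2 in liver. SNAP23, the widely expressed relative of SNAP25, was at 4.26 to 15.3 CPM (median 8.56) in liver and 1.56 to 8.69 CPM (median 2.01) in pituitary (log2 fold change -1.81, standard error 0.27, adjusted p = 1.49e-05). STXBP2, a Munc18 of cells that are not neurons, was at 52.8 to 85.3 CPM (median 75.8) and 18.6 to 32.99 CPM (median 28.2), without overlap (log2 fold change -1.47, standard error 0.12, adjusted p = 9.22e-09). On the other side, STX3, a syntaxin of apical membranes, was at 45.5 to 94.4 CPM (median 62.1) in pituitary and 1.39 to 6.05 CPM (median 3.22) in liver (log2 fold change 4.39, standard error 0.20, adjusted p = 4.51e-12). STX6, a Golgi and granule syntaxin, was at 18.5 to 33.6 CPM (median 24.8) and 3.34 to 10.2 CPM (median 5.85) (log2 fold change 2.02, standard error 0.19). STX4, the syntaxin of constitutive fusion, was not called, at 27.9 to 38 CPM (median 31.9) and 21.3 to 51.6 CPM (median 32.98) (log2 fold change -0.07, standard error 0.15).

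Because paralogs are read in the same library, their ratio needs no scaling between libraries. In 18 pairs the log2 ratio of reads of the first gene named to the second was compared between the tissues of each animal. Some pairs, such as SEC23A over SEC23B, belong to steps that both routes share, so their direction does not mark a route. In 17 of the 18, every animal moved the same way (exact two-sided sign-flip permutation test, p = 0.00195 for each of the 17). The ratio was higher in pituitary in 13 of these and lower in 4, which were RAB27B over RAB27A, ERO1LB over ERO1L, SEC23A over SEC23B and STT3B over STT3A. Without bull 3 the 17 kept their direction (exact two-sided sign-flip permutation test, p = 0.00391 for each, the smallest that 9 pairs allow). SNAP25 over SNAP23 was 11.78 ± 1.84 higher in pituitary (mean ± SD, n = 10), or 9.96 with 5 reads in place of 0.5 added to each count. STX1A over STX4 was 6.93 ± 1.37 higher, and RAB3A over RAB8A 7.15 ± 0.68.

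The vesicle SNAREs split. VAMP2, the vesicle SNARE of synapses and granules, rose relative to VAMP8, an endosomal SNARE, from liver to pituitary by 2.27 ± 0.51. Its ratio to VAMP3, the cellubrevin of constitutive vesicles, differed by 0.14 ± 0.54 and was higher in pituitary in 6 of 10 animals (exact two-sided sign-flip permutation test, p = 0.434). Both genes were higher in pituitary, VAMP2 at 46.02 to 90.04 CPM (median 63.6) against 12.5 to 32.3 CPM (median 21.4) (log2 fold change 1.55, standard error 0.14) and VAMP3 at 56.6 to 106 CPM (median 72) against 21.7 to 35.6 CPM (median 28.5) (log2 fold change 1.41, standard error 0.14).

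The Rab27 pair was among the 4. RAB27A and RAB27B tether granules at the cell surface, and the ratio of RAB27B to RAB27A was lower in pituitary (difference -2.90 ± 1.15). RAB27A was at 90.5 to 216 CPM (median 173) in pituitary and 7.59 to 29.97 CPM (median 10.5) in liver (log2 fold change 3.73, standard error 0.22), while RAB27B was at 1.38 to 3.94 CPM (median 2.60) and 0.295 to 2.20 CPM (median 1.44) (log2 fold change 0.78, standard error 0.33, adjusted p = 0.0406). The call of RAB27B was lost when 1 animal was left out (largest adjusted p 0.0875). NAPB over NAPA, 2 adaptors that recycle SNAREs, was 0.97 ± 0.85 higher in pituitary, a value that rests on few reads because NAPA stayed at or below 0.443 CPM in every library, and with 5 reads added to each count it was 1.88.

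**Figure D4:**
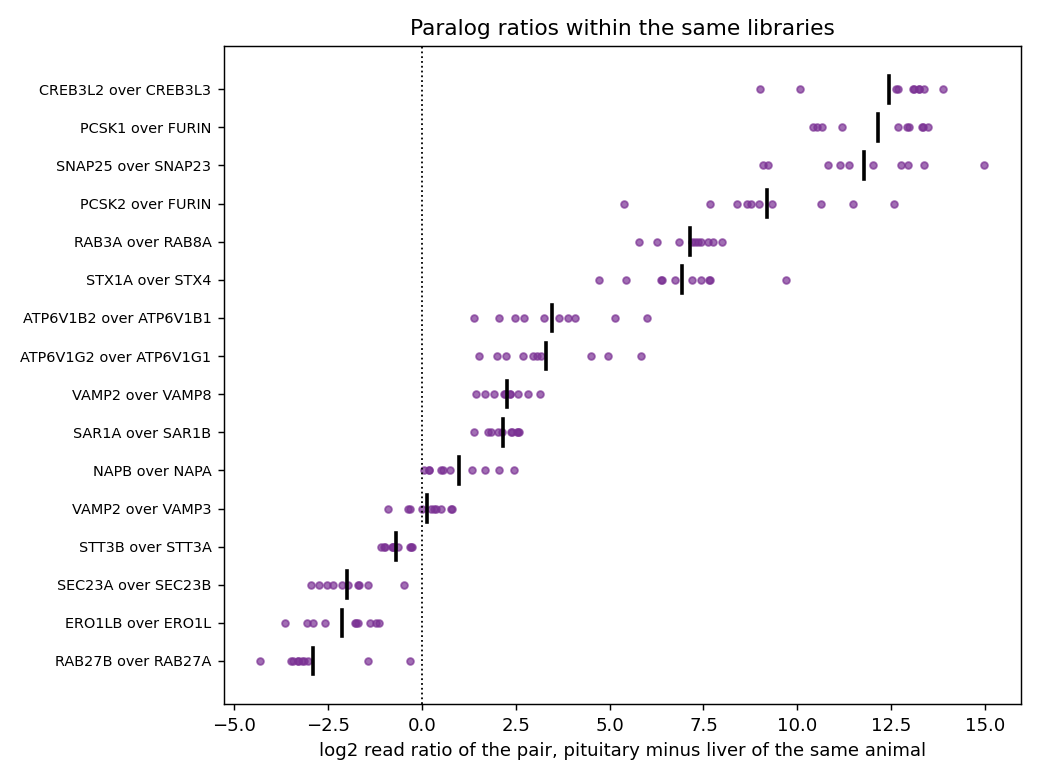
Each point is 1 animal and gives the log2 ratio of reads of the 2 genes named on the left in its pituitary library minus that in its liver library, with 0.5 reads added to each count, for 16 of the 18 pairs. Black bars are means over 10 animals, and the dotted line at 0 is crossed by points of VAMP2 over VAMP3 alone.

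Membrane proteins and assembly factors of granules were mostly higher in pituitary, with 19 of 23 tested, 1 higher in liver and a median of 1.54. PTPRN, a phosphatase-like protein of the granule membrane, was at 425 to 1273 CPM (median 674) in pituitary and 0 to 1.83 CPM (median 0.308) in liver (log2 fold change 10.79, standard error 0.31, adjusted p = 1.33e-14). SYP, the vesicle protein synaptophysin, was at 129 to 259.7 CPM (median 193) and 0.423 to 2.87 CPM (median 1.27) (log2 fold change 7.23, standard error 0.28). Its relative SYPL1 was the member higher in liver, at 59.7 to 186 CPM (median 112) against 40.9 to 113 CPM (median 67.1) (log2 fold change -0.68, standard error 0.15). That direction turned with scaling to the total of reads alone, where its log2 fold change was 0.17.

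The proton pump that acidifies Golgi and granules, the V-ATPase, differed by subunit isoform. Of 24 subunits and accessory proteins tested, 12 were higher in pituitary and 6 in liver, with a median of 0.36. The shares of all genes tested were 38.6% and 31.5%. With scaling to the total of reads alone, 2 of the 24 were higher in liver. ATP6V0A4, a membrane subunit isoform, was at 12.6 to 57.9 CPM (median 28.02) in pituitary and 0.0967 to 4.26 CPM (median 0.925) in liver (log2 fold change 4.57, standard error 0.29, adjusted p = 4.00e-10). ATP6V1G2, an isoform of neurons, was at 4.63 to 7.94 CPM (median 5.09) and 0 to 0.834 CPM (median 0.298) (log2 fold change 4.25, standard error 0.38), and its ratio to the widespread ATP6V1G1 was 3.30 ± 1.38 higher in pituitary, or 1.68 with 5 reads added to each count. In liver, ATP6V0D2 was at 0.139 to 4.72 CPM (median 1.74), with at most 1 read in any pituitary library. ATP6V1B1 was at 0.278 to 4.73 CPM (median 2.67) in liver and 0.168 to 2.0 CPM (median 0.658) in pituitary (log2 fold change -1.68, standard error 0.37), and the ratio of ATP6V1B2 to it was 3.47 ± 1.41 higher in pituitary.

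On the constitutive side, all 62 plasma protein genes tested were higher in liver and for none did the tissues overlap, with a median of -11.23. ALB was at 75612 to 181094 CPM (median 118433) in liver and 11.8 to 23.1 CPM (median 16.3) in pituitary (log2 fold change -12.73, standard error 0.34, adjusted p = 7.21e-15). PLG, the precursor of the clot-dissolving enzyme plasmin, was at 5799 to 10245 CPM (median 7437) and 0.165 to 1.85 CPM (median 0.719) (log2 fold change -13.22, standard error 0.33, adjusted p = 3.61e-15). HRG, a plasma glycoprotein that binds heparin, was at 182 to 1053 CPM (median 792) and 0 to 0.142 CPM (median 0.0697) (log2 fold change -13.18, standard error 0.38). These 3 genes were at trace level in pituitary, ALB by definition of the rule.

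The other 33 plasma protein genes were above trace level in pituitary, and a few are given as examples, chosen after the values were seen. RBP4, the carrier of retinol, was at 147 to 234 CPM (median 186) in pituitary and 1936 to 7480.3 CPM (median 4759.6) in liver (log2 fold change -4.65, standard error 0.21, adjusted p = 5.19e-12). C3, the central complement protein, was at 72.4 to 176 CPM (median 107) and 29581 to 56673 CPM (median 42919) (log2 fold change -8.57, standard error 0.28). CP, the copper protein ceruloplasmin, was at 53.4 to 128 CPM (median 91.04) and 3315 to 10004 CPM (median 6540.3) (log2 fold change -6.14, standard error 0.26), and fat had 26.6 ± 18.1 CPM and muscle 3.64 ± 2.93 CPM. LCAT, which esterifies cholesterol on lipoproteins, was at 45.2 to 80.9 CPM (median 62.2) and 340.0 to 803 CPM (median 537) (log2 fold change -3.09, standard error 0.17). The plasma protein with the smallest difference was HGF, hepatocyte growth factor, at 7.92 to 19.9 CPM (median 13.1) in liver and 1.33 to 5.88 CPM (median 3.95) in pituitary (log2 fold change -1.85, standard error 0.25, adjusted p = 4.74e-06).

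SERPINA1, the elastase inhibitor antitrypsin, varied widely between pituitaries, at 6.42 to 120.0 CPM (median 19.5), against 3309 to 7760.3 CPM (median 5556) in liver (log2 fold change -7.92, standard error 0.42). APOA1, the main protein of high-density lipoprotein, was at 43.4 to 302 CPM (median 169) in liver and 1.57 to 20.9 CPM (median 6.37) in pituitary (log2 fold change -4.49, standard error 0.33), and fat had 71.9 ± 103 CPM.

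The steps that both routes share were compared last, and there the differences were small beside those of cargo. Over all genes tested, 38.6% were higher in pituitary and 31.5% in liver. ER translocation had 4 of 23 genes higher in pituitary and 9 in liver (median -0.38), and N-glycosylation 3 and 12 of 22 (median -0.35). ER chaperones and oxidases had 4 and 19 of 34 (median -0.53), and sensors and factors of the unfolded protein response 4 and 10 of 18 (median -0.55). COPII coats and cargo receptors had 7 and 22 of 37 (median -0.56). The 5 medians lay 0.52 to 0.72 below the median of all genes, and with scaling to the total of reads alone they turned positive, at 0.29 to 0.49, yet stayed 0.47 to 0.68 below the median of all genes. Under that scaling the counts higher in pituitary exceeded those higher in liver, with 14 and 3 for translocation, 12 and 4 for N-glycosylation, 15 and 9 for chaperones, 9 and 4 for the unfolded protein response and 17 and 11 for COPII. Beyond 2-fold, 9 chaperones were higher in liver and 2 in pituitary, and 10 COPII genes in liver and 4 in pituitary. Of all genes tested, 16.9% were higher in liver and 22.6% in pituitary by that rule. COPI and Golgi genes, with 18 higher in pituitary and 13 in liver of 47, had a median of 0.16, next to that of all genes, and counts of 37 and 3 under that scaling. Leukocyte and endothelial markers, given above, were higher in liver as well, and their part in these differences was not tested.

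Among the chaperones, P4HB, a protein disulfide isomerase, was at 1325 to 3860.4 CPM (median 2147) in liver and 258 to 554 CPM (median 394) in pituitary (log2 fold change -2.52, standard error 0.16, adjusted p = 3.37e-10). ERO1LB, which reoxidizes such isomerases, was at 53.4 to 449 CPM (median 123) and 18.2 to 32.96 CPM (median 21.7) (log2 fold change -2.53, standard error 0.34), and its ratio to ERO1L was lower in pituitary (difference -2.13 ± 0.87). HSPA5, the main ER chaperone BiP, was not called, at 497 to 2890.2 CPM (median 1851) in liver and 663 to 1854 CPM (median 971) in pituitary (log2 fold change -0.55, standard error 0.24, adjusted p = 0.0559). In the other direction, DNAJC10, an ER reductase, was at 38.6 to 77.1 CPM (median 53.4) in pituitary and 10.1 to 22.8 CPM (median 12.9) in liver (log2 fold change 1.96, standard error 0.16). PDIA2, a disulfide isomerase of few tissues, was at 1.79 to 4.52 CPM (median 2.87) in pituitary, with 1 read in all livers together.

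At the translocon, TRAM2, a helper of chain entry, was at 12.4 to 56.4 CPM (median 24.1) in liver and 3.58 to 8.34 CPM (median 6.01) in pituitary (log2 fold change -2.08, standard error 0.24), while SEC61A2, a channel isoform, was at 45.8 to 72.7 CPM (median 64.6) in pituitary and 19.8 to 46.9 CPM (median 26.2) in liver (log2 fold change 1.23, standard error 0.14). The oligosaccharyltransferase differed in its subunits. TUSC3, a subunit with oxidoreductase activity, was at 37.1 to 54.5 CPM (median 44.9) in pituitary and 1.45 to 8.14 CPM (median 3.72) in liver, without overlap (log2 fold change 3.60, standard error 0.20, adjusted p = 8.23e-11). STT3B, its posttranslational catalytic subunit, was at 136 to 468 CPM (median 298) in liver and 74.9 to 112 CPM (median 104) in pituitary (log2 fold change -1.41, standard error 0.17), and its ratio to STT3A was lower in pituitary (difference -0.70 ± 0.30). ALG3, a mannosyltransferase, was higher in liver (log2 fold change -1.41, standard error 0.15).

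The ER-bound transcription factors of the CREB3 family parted. CREB3L3, known from hepatocytes, was at 64.8 to 782 CPM (median 229) in liver and 0 to 0.0840 CPM (median 0.0229) in pituitary (log2 fold change -12.74, standard error 0.31, adjusted p = 2.50e-15). CREB3L1 was at 28.5 to 87.6 CPM (median 60.5) in pituitary and 5.84 to 18.6 CPM (median 9.77) in liver, without overlap (log2 fold change 2.54, standard error 0.22). The ratio of CREB3L2 to CREB3L3 was 12.44 ± 1.58 higher in pituitary, or 9.77 with 5 reads added to each count. CREB3L2 itself was at 59.8 to 171 CPM (median 93.3) and 42.3 to 115 CPM (median 65.6) (log2 fold change 0.52, standard error 0.21, adjusted p = 0.0406), a call lost when 1 animal was left out (largest adjusted p 0.105). EDEM1, which sorts misfolded glycoproteins for degradation, was at 56.4 to 203 CPM (median 126) in liver and 13.7 to 21.8 CPM (median 18.7) in pituitary (log2 fold change -2.59, standard error 0.17). XBP1, a main factor of the response, was at 17.03 to 124 CPM (median 61.8) and 17.9 to 38.8 CPM (median 30.5), with overlap (log2 fold change -0.95, standard error 0.22).

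In COPII transport the paralogs also differed. SAR1B, the GTPase form linked to lipoprotein export, was at 76.7 to 253 CPM (median 168) in liver and 21.04 to 67.3 CPM (median 30.9) in pituitary (log2 fold change -2.36, standard error 0.21, adjusted p = 3.49e-08), while SAR1A was not called (log2 fold change -0.20, standard error 0.19), and the ratio of SAR1A to SAR1B was 2.16 ± 0.40 higher in pituitary. Muscle had SAR1B at 240.4 ± 140.4 CPM. SEC23A, an inner coat subunit, was at 89.8 to 171 CPM (median 135) and 33.4 to 49.96 CPM (median 41.01) (log2 fold change -1.72, standard error 0.15), and its ratio to SEC23B was lower in pituitary (difference -2.002 ± 0.73).

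CTAGE5, which helps load bulky cargo, was at 406 to 657 CPM (median 529) in liver and 76.7 to 152 CPM (median 100.4) in pituitary, without overlap (log2 fold change -2.38, standard error 0.14, adjusted p = 9.68e-11). TMED6 and TMED3 belong to one family of cargo receptors and lay on opposite sides, TMED6 at 24.6 to 81.3 CPM (median 42.3) in liver and 3.16 to 5.87 CPM (median 4.91) in pituitary (log2 fold change -3.15, standard error 0.19) and TMED3 at 1.45 to 7.97 CPM (median 4.01) and 6.29 to 49.5 CPM (median 22.2) (log2 fold change 2.54, standard error 0.31). At the Golgi, AP1M2, an adaptor subunit of epithelial cells, was at 36.7 to 76.99 CPM (median 57.9) in pituitary and 0.688 to 10.1 CPM (median 1.86) in liver (log2 fold change 4.62, standard error 0.30, adjusted p = 5.25e-10). AP1S2, another subunit of the AP-1 adaptor that sorts cargo at the trans-Golgi, was at 55.1 to 90.1 CPM (median 69.5) and 4.16 to 9.20 CPM (median 6.86) (log2 fold change 3.42, standard error 0.15). GOLIM4, a Golgi membrane protein, was higher in liver, at 319 to 932 CPM (median 485) against 50.6 to 132 CPM (median 82.9) (log2 fold change -2.77, standard error 0.16, adjusted p = 1.51e-10).

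Fat and muscle of the same animals placed both organs on a common scale. In a fit over the 40 libraries, 3786 of 13148 genes (28.8%) were higher and 4628 (35.2%) lower in liver than in the mean of fat and muscle, and 4507 (34.3%) were higher and 4238 (32.2%) lower in pituitary. The 2 contrasts share the fat and muscle libraries and were fitted with TMM scaling only. ER chaperones were above fat and muscle in both organs, with 30 of 34 higher and 1 lower in liver (median 1.82) and 29 higher and 0 lower in pituitary (median 1.01). N-glycosylation genes had 19 of 22 higher and 1 lower in liver (median 0.91), and 16 higher and 1 lower in pituitary (median 0.76). Translocation genes had 12 of 23 higher and 2 lower in liver (median 0.97), and 15 higher and 3 lower in pituitary (median 0.57). COPII genes had 24 of 37 higher and 6 lower in liver (median 0.69), and 19 higher and 10 lower in pituitary (median 0.41). COPI and Golgi genes had 24 of 47 higher and 8 lower in liver (median 0.50), and 27 higher and 5 lower in pituitary (median 0.56).

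The unfolded protein response list had 12 of 18 genes higher and 6 lower in liver (median 1.06). In pituitary it had 7 higher and 6 lower (median 0.19), near the shares of all genes, 34.3% and 32.2%. Regulated fusion genes were high in pituitary on this scale, with 32 of 38 higher and 4 lower (median 2.93), against 5 higher and 11 lower in liver (median -0.18). Constitutive fusion genes had 7 of 27 higher and 8 lower in pituitary and 6 higher and 12 lower in liver. The median of all genes was 0.03 in pituitary and -0.15 in liver.

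**Figure D5:**
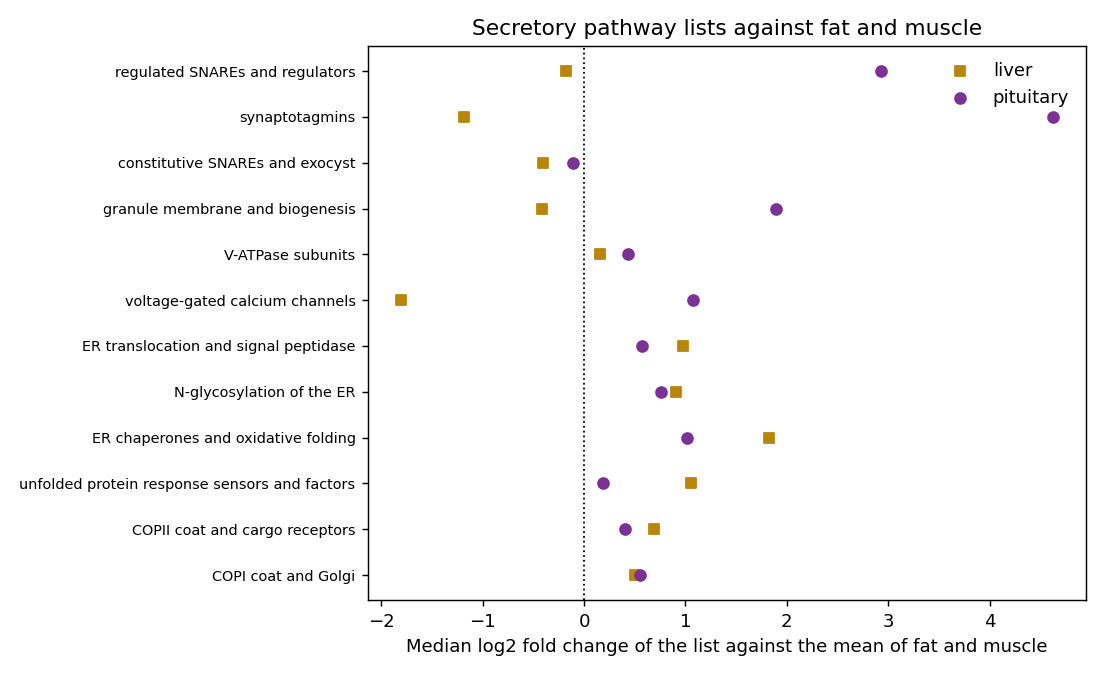
For each list on the left, the square is its median log2 fold change in liver and the circle that in pituitary, each against the mean of fat and muscle (40 libraries, animal as block). ER lists lie right of 0 in both organs, chaperones at 1.82 in liver and 1.01 in pituitary, while regulated fusion genes lie at 2.93 in pituitary and -0.18 in liver.

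Transcription factors of endocrine and of liver cells divided as the tissues did, with 12 of 24 tested higher in pituitary and 12 in liver, all beyond 2-fold. LHX3, a factor of pituitary development, was at 116 to 245 CPM (median 143) in pituitary and 0 to 0.383 CPM (median 0) in liver (log2 fold change 11.07, standard error 0.32). HNF4A, a central factor of hepatocytes, was at 397 to 1474 CPM (median 922) in liver and 0 to 0.596 CPM (median 0.0835) in pituitary (log2 fold change -12.67, standard error 0.37, adjusted p = 1.69e-14). GATA4 was at 28.2 to 72.5 CPM (median 41.5) in liver with 0 reads in every pituitary library, so that it was at least 182-fold higher in liver against the limit of 3 reads in 1 library. REST, which represses neuronal genes in other cells, was higher in liver, at 32.2 to 58.4 CPM (median 44.5) against 5.69 to 15.7 CPM (median 10.6) (log2 fold change -2.16, standard error 0.15, adjusted p = 9.32e-10).

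Over the whole table, the genes with the largest differences, among those with at least 100 reads on average in the higher tissue, were as follows. Higher in liver were FTCD, an enzyme of histidine breakdown (log2 fold change -13.90, standard error 0.29), OTC, an enzyme of the urea cycle (log2 fold change -13.40, standard error 0.34), and LOC781988 (log2 fold change -13.75, standard error 0.32). APOC4, a lipoprotein gene, and CPN1, a plasma carboxypeptidase, had 0 reads in every pituitary library and were at least 453-fold and 422-fold higher in liver. Higher in pituitary was AP3B2, a subunit of the neuronal AP-3 adaptor of vesicle formation, at 112 to 245 CPM (median 171) against 0 to 0.192 CPM (median 0) (log2 fold change 11.87, standard error 0.33). SOX2, a progenitor factor that is also on the list of neural lobe and glia markers, SLC6A15, an amino acid transporter, DMRTA2 and NOL4 had 0 reads in every liver library, with pituitary medians of 33.2, 46.5, 44.5 and 40.4 CPM.

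The difference between the organs was also compared between cows and bulls. The interaction of tissue and sex was called for 1 of 12949 genes (0.00772%) by the quasi-likelihood test and for 0 of the 425 list members tested. At an unadjusted p under 0.05, 1454 genes (11.2%) and 51 members (12%) passed, and the likelihood ratio test called 72 genes. The liver library labelled bull 3 was counted as male, and without bull 3 the quasi-likelihood test called 0 genes (0 to 12 over the 10 fits that each leave out 1 animal). With 5 animals per sex, a contrast that misses the threshold is not shown to be alike in both.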

How the data were processed

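The authors sequenced RNA of liver, pituitary gland, fat and muscle of 10 cattle. They trimmed adapters (Trimmomatic), mapped to bosTau7 of UCSC (TopHat2, Bowtie2) and counted reads per gene (HTSeq). The deposited values are these raw counts for 13570 genes. The strand setting is not given in the sources used here. A row without a gene name, 0.126 to 0.488% of reads, was left out, and 33.2 to 54.0% of reads counted outside genes. Counts were fitted in edgeR 4.0.16 (limma 3.58.1, R 4.3.3) with TMM factors (0.651 to 0.864 in liver, 1.14 to 1.67 in pituitary), estimateDisp, glmQLFit and glmQLFTest, with the animal as a block and tissue as the term, for the 12949 genes with at least 1 read. Log2 fold changes used a prior count of 0.125, p-values were adjusted by Benjamini-Hochberg over all genes tested, and TREAT used a fold of 2. Libraries were paired by the ear tag in the labels, and the 2 labelled bull 3 disagreed in sex. The deviations of paired libraries from the means of their labelled sex and tissue correlated at 0.0255 to 0.554, above the mean with other animals in 10 of 10. Because each group was centred on its mean, a positive correlation within a pair pulls those with other animals of its sex down. The comparison with other animals therefore cannot test the pairing, and the 10 include bull 3. The script that calls genes was tested on simulated data.

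Named genes were all hormones, granins and processing enzymes, both members of each paralog pair, the 2 most changed members of each list in each direction with at least 10 reads on average in the higher tissue, and the 5 most changed genes overall in each direction with at least 100. Further genes were named after their values were seen: marker genes, PCSK7, CADPS2, SYT4, CACNA1F, HSPA5, XBP1, REST, HGF and the other plasma proteins given with levels. The members and lists were chosen with earlier results of these data known. Of 500 genes listed, those missing from the tables (among them VGF, APOB, NSF, SYT7, UNC13A, CPD, ERN1 and ATF6) were not analysed here, and results for a few genes are not reported here. Paralog ratios added 0.5 reads to each count, and all 1024 sign flips over the animals were enumerated. Exact p-values are not adjusted for the 18 pairs. Depth limits rare genes: 3 reads in a library were taken as the limit that a count of 0 allows. Alternatives were the likelihood ratio test, DESeq2 1.42.0, other scalings, filterByExpr, no animal block and each animal left out, and a fit without bull 3 and cow 4 was added after the data were seen. p-values measure the spread between these 10 animals.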

Additional observations from a re-analysis of the deposited data

Results flagged for a closer look

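In 4 of 129 genes examined, 1 animal's difference between the organs stood apart from the other 9 (the gap to its neighbour was more than 0.466 of the whole range), and chance gives about 1 in 20. Differences here are within an animal, on log2 of CPM + 0.5. PCSK2, the prohormone convertase, differed by 2.17 in cow 4, against 4.81 to 7.10 in the others. Cow 4 had the lowest pituitary level, 12.5 CPM, and the second highest liver level, 2.40 CPM. SCG2, a granin, differed by 8.48 in bull 2, against 9.81 to 11.1 in the others, and that liver had 26.4 CPM of SCG2 beside the highest PRL of all livers, 333 CPM. STXBP6, the SNARE-binding protein higher in liver, differed by 0.301 in cow 5, against -2.61 to -1.51. RAB8A, a GTPase of constitutive vesicles, differed by 0.234 in bull 4, against -1.02 to -0.421. The cause was not tested in any of them.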

How the results depend on the processing

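Counts of genes higher in pituitary and in liver ranged from 4812 to 5015 and from 3938 to 4089 when 1 animal was left out, against 4993 and 4078. They were 5145 and 4187 with the likelihood ratio test, 4872 and 4144 with DESeq2, and 5591 and 3568 with upper quartile factors. The fit with no replicate block, which ignores the pairing by animal, gave 4891 and 4136, shared 8758 calls (96.5%) with the blocked fit, and left every list count within 1.5 times. Leaving out bull 3 and cow 4 gave 4662 and 3893. A 4-fold limit in place of 2-fold left 1746 and 1257 genes.

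Scaling to the total of reads alone changed many of these counts. It gave 7957 and 2195 genes, and 5035 and 1399 beyond 2-fold. For the lists it gave, higher in pituitary and in liver, 21 and 2 for constitutive fusion, 14 and 3 for ER translocation, 12 and 4 for N-glycosylation, 15 and 9 for chaperones, 9 and 4 for the unfolded protein response, 17 and 11 for COPII, and 37 and 3 for COPI and Golgi. It gave 2 in pituitary for ubiquitous convertases, 0 in liver for granule membrane and 2 in liver for V-ATPase. It turned the log2 fold change positive for ERO1L (0.44), RAB8A (0.24), SAR1A (0.65), STT3A (0.13), STX4 (0.78), STXBP3 (0.44), SYPL1 (0.17) and VAMP8 (0.13). With filterByExpr, 0 calcium channels were higher in liver, since fewer genes were tested. The interaction with sex was called for 72 genes by the likelihood ratio test and for 0 to 12 when 1 animal was left out, with 0 without bull 3. The calls of CREB3L2, ERO1L and RAB27B, at an adjusted p just under 0.05, were lost when 1 animal was left out. Depth limits genes at or under 3 reads in a library.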
